A study of Mus musculus with 6 samples.

Results

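The genes described here encode 35 enzymes that use molecular oxygen, iron and 2-oxoglutarate to hydroxylate a substrate. They were taken as a fixed list of named genes: histone lysine demethylases of the KDM2/7, KDM3, KDM4, KDM5 and KDM6 subfamilies, small proteins with a JmjC domain, the TET enzymes, 3 members of the AlkB family, the lysyl hydroxylases and the alpha subunits of collagen prolyl 4-hydroxylase. All 35 were found in the annotation (GENCODE M21, mm10), out of 55341 gene names. Every peak in a gene body or within 10 kb of it was collected, which gave between 88 and 108 peaks in a library, or 0.236% to 0.267% of that library's list. After replicates were joined into consensus peaks, 100 of the 41308 in the genome belonged to these genes.

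The libraries came from GL261, a transplantable mouse glioma cell line, stably expressing pEGFP-N1 in all groups. Cells were kept at 21% O2 (normoxia), or for 16 h at 1% or <0.1% O2, fixed with formaldehyde while still in the chamber, and subjected to ATACseq, in which the Tn5 transposase cuts and tags accessible DNA. There were 2 libraries per oxygen level. All groups are 1 cell line, and nothing in the labels says whether the 2 libraries of a level came from separate cultures, so the p-values below measure only the spread between these libraries.

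Most of these enzymes remove methyl groups from histones, DNA or RNA, or hydroxylate lysine and proline in collagen. Some of the small JmjC proteins hydroxylate other proteins, and each turnover consumes oxygen. The KDM enzymes oxidise the methyl group of a methylated histone lysine, which is then lost as formaldehyde. TET enzymes oxidise 5-methylcytosine. The lysyl and prolyl hydroxylases act on procollagen in the endoplasmic reticulum. Some genes of the group, among them Kdm3a, Kdm4b, Kdm4c, Kdm6b, Jmjd6, Plod1, Plod2, P4ha1 and P4ha2, have been described in other cells as targets of the hypoxia inducible factors (HIFs), which bind a short core, ACGTG or GCGTG. That is background, and RNA and HIF binding were not measured here.

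Height is given as summit pileup, the number of fragments over the highest point of a peak, divided by the median over the 28432 peaks found in all 6 libraries. That median was 61 and 80 fragments at 21% O2, 108 and 98 at 1%, and 99 and 82 at <0.1%, so a height of 1 is the middle shared peak of the same library. A gene's promoter peak is the one within 2000 bp of an annotated start (edge to start), present in all 6 libraries, with the highest average pileup rank. Changes are log2 differences with their standard error (SE) from limma, and p-values are adjusted over all 28432 peaks (Benjamini-Hochberg) with 0.05 as the threshold. The fit draws the variance of each peak towards that of peaks of similar height. Of a median total of 37.7 degrees of freedom, 3 were the peak's own, so most of the spread was borrowed from other peaks. The normoxic libraries were shallower (33006 and 36188 peaks, against 39348 to 43554) and both hypoxia levels are compared with the same normoxic pair. The promoters of the 8 glial and glioma markers looked up, Sox2, Nes, Vim, Olig2, Gfap, S100b, Cd44 and Slc1a3, carried a peak in all 6 libraries, while of 12 immune, endothelial, neuronal and epithelial markers only Syt1 did, and 9 had no promoter peak in any library.

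The sequences below are those around the starts on which the results turn: the promoters of Alkbh1, Kdm5a and Riox2, which fell furthest at <0.1% O2, those of P4ha1 and P4ha2, which moved apart, and, of the 3 Kdm3a starts with a window, the most upstream one and the internal one, which lies in a peak seen only in hypoxia. Capitals mark ACGTG or GCGTG on either strand. The windows run 5′ to 3′ on the gene's strand and come from RefSeq (GRCm38.p6, 250 bases before to 50 after a start), except that of Kdm5a, which is the centre of its promoter peak read from the same assembly.
Alkbh1, chr12:87443790-87444089, minus strand: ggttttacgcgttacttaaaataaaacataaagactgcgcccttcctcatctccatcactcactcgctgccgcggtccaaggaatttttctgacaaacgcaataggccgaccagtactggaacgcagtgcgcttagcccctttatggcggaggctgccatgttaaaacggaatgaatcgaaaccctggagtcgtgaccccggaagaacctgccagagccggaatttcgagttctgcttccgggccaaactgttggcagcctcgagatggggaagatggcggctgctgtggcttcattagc
Kdm5a, chr6:120363798-120364097, plus strand: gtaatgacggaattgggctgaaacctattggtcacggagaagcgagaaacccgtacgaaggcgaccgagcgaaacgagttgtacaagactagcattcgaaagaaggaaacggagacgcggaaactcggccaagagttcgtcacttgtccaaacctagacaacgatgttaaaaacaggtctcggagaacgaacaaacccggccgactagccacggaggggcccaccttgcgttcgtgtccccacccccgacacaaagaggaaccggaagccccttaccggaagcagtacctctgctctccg
Riox2, chr16:59471525-59471824, plus strand: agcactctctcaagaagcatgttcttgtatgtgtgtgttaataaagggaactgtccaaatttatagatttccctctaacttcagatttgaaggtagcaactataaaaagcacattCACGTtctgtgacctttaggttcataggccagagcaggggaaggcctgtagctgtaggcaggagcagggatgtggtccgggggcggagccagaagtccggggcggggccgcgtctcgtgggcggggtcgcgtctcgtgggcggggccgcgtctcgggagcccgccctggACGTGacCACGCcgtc
P4ha1, chr10:59323046-59323345, plus strand: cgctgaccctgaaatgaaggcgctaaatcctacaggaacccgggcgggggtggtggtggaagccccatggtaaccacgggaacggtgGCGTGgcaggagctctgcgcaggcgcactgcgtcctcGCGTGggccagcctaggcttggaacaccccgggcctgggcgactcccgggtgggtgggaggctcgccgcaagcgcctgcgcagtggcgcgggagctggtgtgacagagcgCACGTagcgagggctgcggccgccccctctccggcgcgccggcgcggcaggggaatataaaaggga
P4ha2, chr11:54100674-54100973, plus strand: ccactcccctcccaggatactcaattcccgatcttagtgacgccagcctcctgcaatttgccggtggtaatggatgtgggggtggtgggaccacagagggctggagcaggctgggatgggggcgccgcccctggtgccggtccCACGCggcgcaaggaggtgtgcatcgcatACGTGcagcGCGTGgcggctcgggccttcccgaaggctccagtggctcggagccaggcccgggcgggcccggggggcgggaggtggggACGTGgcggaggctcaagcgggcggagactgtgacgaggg
Kdm3a upstream start, chr6:71632868-71633167, minus strand: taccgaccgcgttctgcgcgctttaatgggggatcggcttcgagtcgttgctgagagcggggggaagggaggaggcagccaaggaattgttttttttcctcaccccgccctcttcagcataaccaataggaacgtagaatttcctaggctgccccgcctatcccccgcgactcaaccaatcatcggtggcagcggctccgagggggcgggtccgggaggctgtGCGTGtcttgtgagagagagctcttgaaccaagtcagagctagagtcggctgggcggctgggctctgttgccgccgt
Kdm3a internal start, chr6:71609090-71609389, minus strand: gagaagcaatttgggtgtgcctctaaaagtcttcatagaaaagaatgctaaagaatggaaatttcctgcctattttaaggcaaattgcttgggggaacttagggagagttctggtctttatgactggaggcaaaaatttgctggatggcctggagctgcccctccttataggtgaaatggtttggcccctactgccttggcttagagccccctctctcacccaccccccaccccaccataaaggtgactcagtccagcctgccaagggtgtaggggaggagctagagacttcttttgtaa

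The core occurred 3 times in the window of P4ha1, 4 times in that of P4ha2, 3 times in that of Riox2 and 1 time at the upstream Kdm3a start. It did not occur in the windows of Alkbh1, Kdm5a or the internal Kdm3a start, nor in the third Kdm3a window, which overlaps the upstream one and is not shown. RefSeq windows were found for 29 of the 35 genes. Of their 36 windows, 22 (61.1%) held the core at least once, against 43.8% of all 32851 windows. Windows of 1 gene can overlap, as at Kdm2b and Kdm3a, so they are not all separate promoters. In the central 300 bases of the peaks, 22 of the 29 gene promoter peaks (75.9%) held it, against 61.3% of all 12959 promoter peaks. These are counts of letters and do not show that a factor bound there. The gene promoter peaks had a median GC content of 63.8% (all promoter peaks 59.5%), and 11 of 29 (37.9%) also lay at the start of another annotated gene, against 27.1% of all promoter peaks. Their median height at 21% O2 was 1.44, the same as that of all promoter peaks.

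Of the 35 genes, 29 had a promoter peak in all 6 libraries. At <0.1% O2 the promoter peaks of 14 were lower than at 21% O2 and those of 4 were higher (limma, adjusted over all peaks). That is 48.3% and 13.8%, beside 38.5% and 13.8% of all 12959 promoter peaks, and the median change was -0.30 against -0.19 over all promoter peaks. At 1% O2, 8 were lower (27.6%, all promoter peaks 22.0%) and 5 higher (17.2%, all promoter peaks 12.9%), with a median change of -0.04 against -0.07. Between the hypoxic levels, 8 were lower at <0.1% than at 1% O2 (27.6%, all promoter peaks 18.5%) and none was higher (all promoter peaks 4.97%). These shares are near those of promoters at large. In bulk libraries, a peak that is lower in all cells and one that is lost from a part of the cells cannot be told apart.

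The balance of lower and higher calls moved with the scaling. Divided by genome coverage in place of the shared-peak median, the count was 2 lower and 4 higher at 1%, and 11 lower and 0 higher at <0.1% O2; the lower ones at 1% were Kdm5a and Alkbh1. On log2 fold in place of pileup, none of the 29 was called at 1%, so no gene promoter call at 1% below holds on that measure. At <0.1% O2, Kdm5a, Jmjd4, Riox2, Alkbh1 and P4ha1 were then lower and Kdm6a higher. With the trend with GC content subtracted it was 7 lower and 5 higher at 1%, and 8 lower and 7 higher at <0.1% O2. Without a mean-variance trend in the fit, Kdm3a, Jmjd6, Riox2, Plod1 and Kdm7a lost their call at 1% O2 (adjusted p from 0.0546 to 0.0959), and Jmjd1c, Kdm4b, Kdm8 and Plod3 theirs at <0.1% (adjusted p from 0.0705 to 0.134). The median of all shared peaks moves with the first choice, since log2 of the median pileup over coverage was 4.82 and 5.08 at 21%, 5.21 and 5.03 at 1%, and 4.89 and 4.69 at <0.1% O2. These offsets also differed between libraries of the same level, and in the coverage fit they entered the spread of every peak. Some calls were lost there although the change grew, as at Kdm7a at 1% (0.33 to 0.49) and Plod3 at <0.1% O2 (-0.33 to -0.50). At others, such as Kdm2a at <0.1% O2 (0.50 to 0.34), the change shrank. At 1% O2 the number of lower promoters fell from 8 to 4 without the second 1% library and to 5 without the second normoxic library, and the number of higher ones from 5 to 3 without the first 1% or the first normoxic library. At <0.1% O2 the number of higher ones fell from 4 to 2 without the first normoxic library, and between the hypoxic levels the number lower fell from 8 to 5 without the first 1% library and to 4 without the first <0.1% library. Of the 31 calls of a gene at a hypoxia level, 4 kept their direction and their side of the threshold in all 16 other settings: Kdm5a, Riox2, Alkbh1 and P4ha1, each lower at <0.1% O2, with values nearest 0 of -0.45, -0.29, -0.64 and -0.23.

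**Figure D1:**
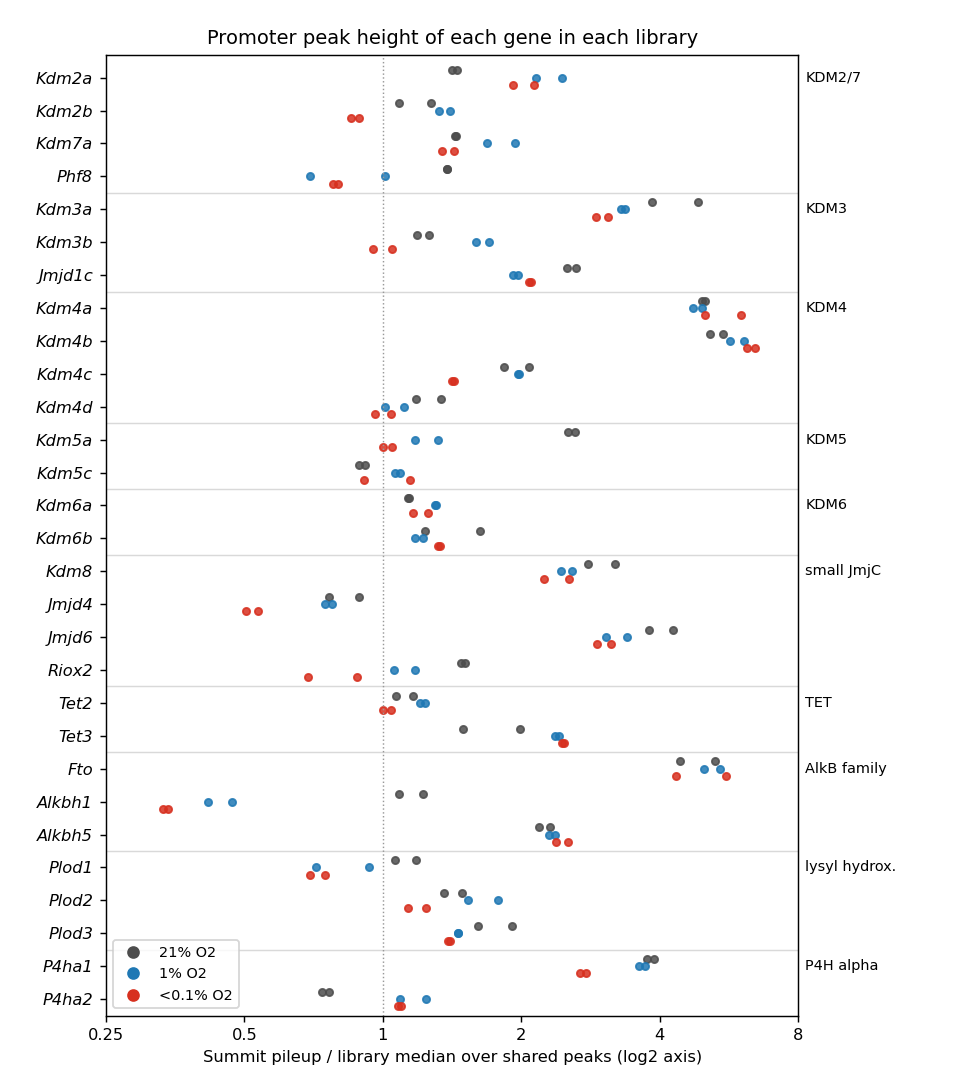
Each point is 1 library's summit pileup at a gene's promoter peak, divided by that library's median over the shared peaks (log2 axis), for the 29 genes with a promoter peak in all libraries, by subfamily, at 21% (grey), 1% (blue) and <0.1% O2 (red). Heights run from 0.333 at Alkbh1 to 6.44 at Kdm4b, and the normoxic points of Kdm5a and Alkbh1 stand clear of all hypoxic ones.

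**Figure D2:**
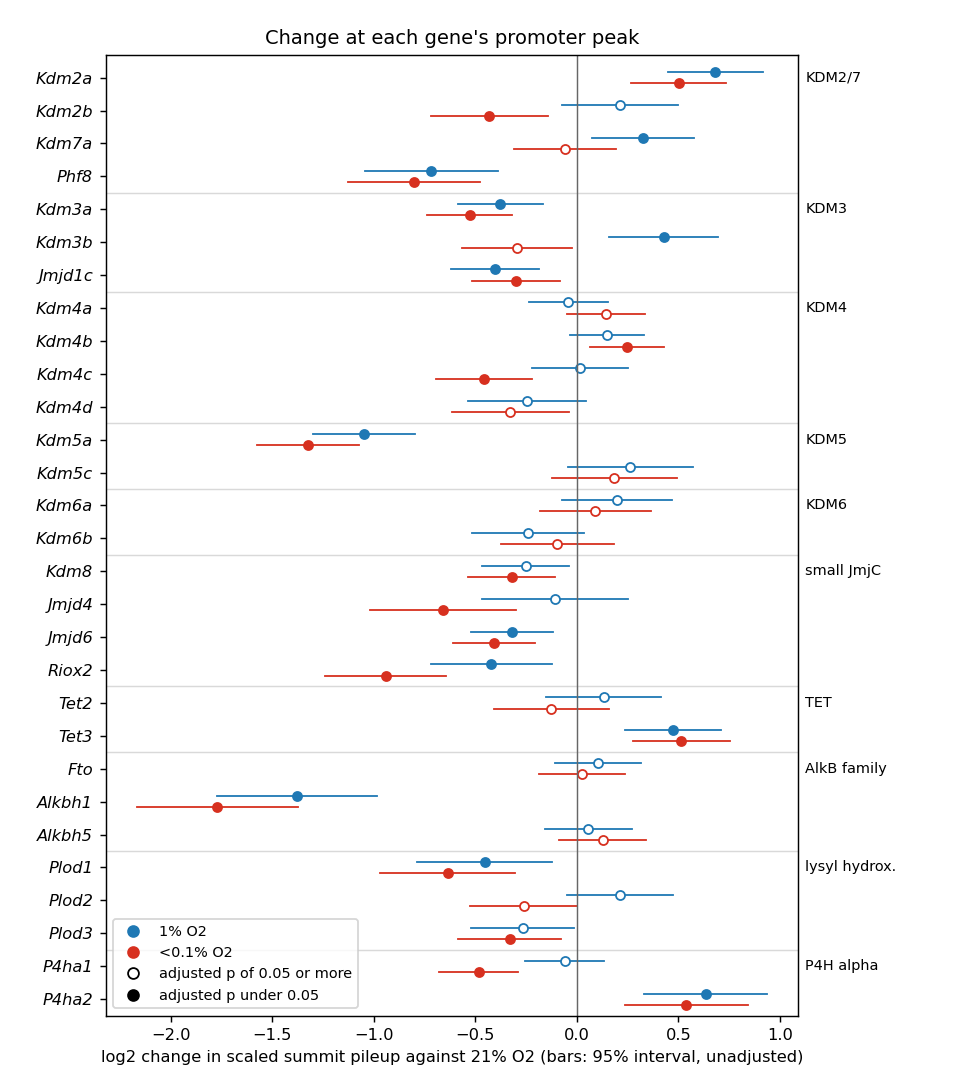
Log2 change of the scaled summit pileup against 21% O2 at the same 29 promoter peaks, at 1% (blue) and <0.1% O2 (red), with unadjusted 95% intervals as bars. Filled points passed the adjusted threshold; Alkbh1 and Kdm5a lie furthest to the left, and Kdm2a, Tet3 and P4ha2 to the right at both levels.

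The KDM2/7 subfamily, enzymes that bind unmethylated CpG islands or methylated histone tails and remove mostly lower methylation states, moved in both directions. Kdm2a, an H3K36 demethylase, had a promoter peak (chr19:4396843-4397937, centred in the first intron) of 1.41 and 1.45 at 21% O2, 2.15 and 2.45 at 1%, and 1.92 and 2.13 at <0.1%. All 4 hypoxic libraries stood above both normoxic ones, and the log2 change was 0.68 (SE 0.12, adjusted p = 1.53e-05, limma) at 1% and 0.50 (SE 0.12, adjusted p = 0.000508) at <0.1% O2. Scaled by coverage the <0.1% value was 0.34 (adjusted p = 0.241), and on log2 fold the values were 0.02 (adjusted p = 0.906) and 0.17 (adjusted p = 0.245). Its paralog Kdm2b (chr5:122899665-122900735), which also recruits Polycomb proteins, stood at 1.08 and 1.27 in normoxia, 1.32 and 1.40 at 1%, and 0.889 and 0.854 at <0.1% O2. Only the <0.1% value changed (-0.43, SE 0.14, adjusted p = 0.0118), and it lay 0.64 below that at 1% (adjusted p = 0.00102). The <0.1% call was lost without the second normoxic library (-0.31, adjusted p = 0.129) or the second <0.1% library (-0.40, adjusted p = 0.0701), and with the GC trend subtracted the value turned to 0.16. On log2 fold it was -0.27 (adjusted p = 0.0993), and the difference between the levels was -0.15 (adjusted p = 0.565) with the GC trend subtracted and -0.18 (adjusted p = 0.357) on log2 fold.

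The Phf8 promoter (chrX:151520268-151521220), whose product reads H3K4me3 and demethylates H3K9me2 and H4K20me1, stood at 1.38 in both normoxic libraries. It stood at 1.01 and 0.694 at 1% and at 0.798 and 0.780 at <0.1% O2, below normoxia in all 4 hypoxic libraries. The changes were -0.72 (SE 0.16, adjusted p = 0.000577) and -0.80 (SE 0.16, adjusted p = 9.66e-05), the first lost without the second 1% library (-0.43, adjusted p = 0.0819) or scaled by coverage (-0.55, adjusted p = 0.0714). On log2 fold they were -0.25 (adjusted p = 0.173) and -0.17 (adjusted p = 0.319). Kdm7a, an H3K9 and H3K27 demethylase, had 2 promoter peaks. The taller one upstream (chr6:39206473-39207376) went from 1.44 and 1.44 to 1.94 and 1.68 at 1% and back to 1.42 and 1.34 at <0.1% O2, a change of 0.33 (SE 0.12, adjusted p = 0.0357) at 1% and -0.06 (adjusted p = 0.719) at <0.1%. The call at 1% was lost without the first 1% library (0.24, adjusted p = 0.283) or either normoxic library (0.31 and 0.33, adjusted p = 0.0926 and 0.0707), or scaled by coverage (0.49, adjusted p = 0.102), and with the GC trend subtracted the <0.1% value was 0.43 (adjusted p = 0.00395). The one in the first intron (chr6:39205111-39205846) went from 0.885 and 0.825 to 1.28 and 1.18 at 1%, and to 1.12 and 1.33 at <0.1% O2. It rose by 0.53 (adjusted p = 0.00408) and 0.51 (adjusted p = 0.00349), although without the first 1% library the former was 0.49 (adjusted p = 0.0511) and without the second <0.1% library the latter was 0.39 (adjusted p = 0.091). Scaled by coverage the latter was 0.35 (adjusted p = 0.237), and on log2 fold they were 0.23 (adjusted p = 0.369) and 0.34 (adjusted p = 0.154). Phf2 had no promoter peak in all libraries and is described with the gained and lost peaks.

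Of the 3 genes of the KDM3 subfamily, 2 were called lower and 1 higher at 1% O2, beside 22.0% and 12.9% of all promoter peaks. Kdm3a, an H3K9 demethylase and among the best known HIF targets of the group, had a tall promoter peak (chr6:71632554-71633603) of 3.84 and 4.85 at 21% O2, 3.29 and 3.36 at 1%, and 2.90 and 3.09 at <0.1%. It was lower in all 4 hypoxic libraries, by -0.38 (SE 0.10, adjusted p = 0.00403) and -0.53 (SE 0.10, adjusted p = 6.94e-05). The normoxic libraries themselves differed, and without the second of them the value at 1% was -0.20 (adjusted p = 0.156); without the first 1% library it was -0.35 (adjusted p = 0.0547). Scaled by coverage it was -0.21 (adjusted p = 0.546), and on log2 fold the values at 1% and <0.1% were -0.06 (adjusted p = 0.683) and -0.05 (adjusted p = 0.715). Inside the gene, an intronic peak (chr6:71608958-71609510) was called in all 4 hypoxic libraries, with 62, 44, 43 and 37 fragments, and in neither normoxic one. The internal Kdm3a start printed above lies within it, 23452 bp from the nearest start in the GENCODE set used here.

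Kdm3b (chr18:34776721-34778016), the paralog of Kdm3a, split the hypoxia levels. It stood at 1.26 and 1.19 at 21% O2, 1.70 and 1.59 at 1%, and 0.949 and 1.05 at <0.1%, so that the 1% libraries lay above and the <0.1% libraries below both normoxic ones. The change was 0.43 (SE 0.13, adjusted p = 0.0107) at 1%, lost without the first 1% library (0.39, adjusted p = 0.0938) or on log2 fold (0.16, adjusted p = 0.418), and -0.30 (SE 0.13, adjusted p = 0.0653) at <0.1% O2. The difference between the levels was -0.72 (SE 0.13, adjusted p = 0.000136), lost on log2 fold (-0.36, adjusted p = 0.144) and with the replicate block and GC trend together (-0.39, adjusted p = 0.0546).

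Jmjd1c codes for a large protein of the subfamily. A peak at the 5′ end of the annotated gene, shared with the Reep3 promoter, is described with the other peaks. Further along the gene stood 3 promoter peaks at different transcript starts. The tallest (chr10:67185559-67186163) stood at 2.62 and 2.51 at 21% O2, 1.96 and 1.92 at 1%, and 2.10 and 2.07 at <0.1%, lower in every hypoxic library by -0.40 (SE 0.11, adjusted p = 0.003) and -0.30 (SE 0.11, adjusted p = 0.0206). The latter was lost without either <0.1% library (-0.31 and -0.29, adjusted p = 0.0724 and 0.0975) or quantile normalized (-0.23, adjusted p = 0.0693). Scaled by coverage the values were -0.24 (adjusted p = 0.489) and -0.46 (adjusted p = 0.0884), and on log2 fold -0.23 (adjusted p = 0.128) and -0.20 (adjusted p = 0.143). The peak at the upstream start (chr10:67126312-67127666) was small, 0.590 and 0.637 in normoxia, 0.509 and 0.510 at 1%, and 0.384 and 0.451 at <0.1% O2, where it fell by 0.56 on the log2 scale (adjusted p = 0.0218); without the second normoxic or the first <0.1% library this was -0.50 and -0.44 (adjusted p = 0.0923 and 0.165), with the GC trend subtracted -0.26 (adjusted p = 0.294) and on log2 fold -0.26 (adjusted p = 0.305). The third (chr10:67187108-67187390) stood at 0.885 and 0.625, 0.444 and 0.429, and 0.606 and 0.573, and fell by 0.77 at 1% (adjusted p = 0.00235; without the first normoxic library -0.54, adjusted p = 0.0694; scaled by coverage -0.60, adjusted p = 0.0619; on log2 fold -0.58, adjusted p = 0.061). At <0.1% it passed without the second normoxic library (-0.59, adjusted p = 0.0334) and with the GC trend subtracted (-0.62, adjusted p = 0.0088).

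**Figure D3:**
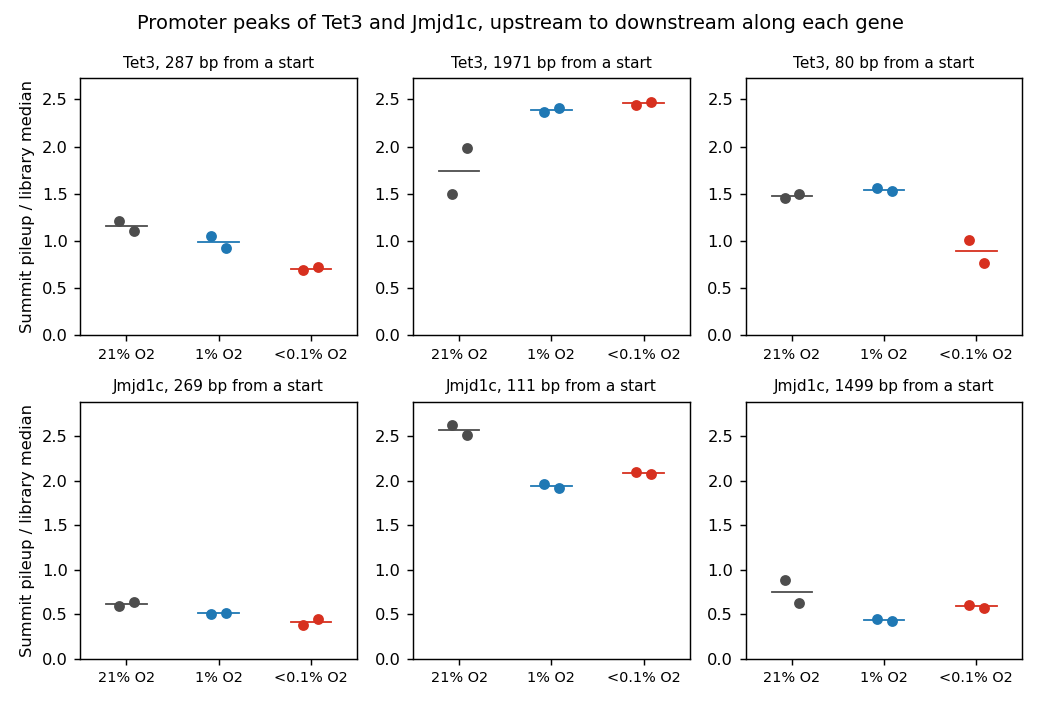
Height at each promoter peak of Tet3 (top) and Jmjd1c (bottom) in each library, ordered along the direction of transcription, with the group mean as a line; the y axis is summit pileup over the library median and the titles give the distance from the peak's centre to the nearest start. The middle Tet3 peak is higher in all hypoxic libraries (2.37 to 2.48 against 1.49 and 1.99), while the outer Tet3 peaks are lowest at <0.1% O2.

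KDM4 enzymes demethylate H3K9 and H3K36, and Kdm4b had the tallest promoter peak of the group. That peak (chr17:56325377-56326426) stood at 5.15 and 5.49 at 21% O2, 5.69 and 6.09 at 1%, and 6.17 and 6.44 at <0.1%. These values do not overlap between groups, but the steps are small, 0.15 (SE 0.09, adjusted p = 0.208) at 1% and 0.25 (SE 0.09, adjusted p = 0.024) at <0.1% O2. The call was lost without the first normoxic library (0.16, adjusted p = 0.152) or either <0.1% library (0.28 and 0.21, adjusted p = 0.0684 and 0.176), scaled by coverage the value was 0.08 (adjusted p = 0.81), and on log2 fold it was -0.0105. The 1% step passed with quantile normalization (0.21, adjusted p = 0.00898) and with the replicate block and GC trend together (0.20, adjusted p = 0.0265). Kdm4a (chr4:118179449-118180709) stood at 4.93 and 5.01, 4.94 and 4.71, and 5.01 and 6.01, with no call on pileup. Its fold percentile among shared peaks, the second measure described below, went from 90.0 and 83.2 to 75.7 and 75.6 at 1% O2 and was called lower there.

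Kdm4c (chr4:74251348-74252647) was level at 1% O2 (1.84 and 2.08 in normoxia, 1.96 and 1.98 at 1%) and lower at <0.1% (1.41 and 1.43). The change there was -0.46 (SE 0.12, adjusted p = 0.00138), against 0.01 (SE 0.12, adjusted p = 0.938) at 1%, and the levels differed by -0.47 (adjusted p = 0.00295). With the GC trend subtracted the <0.1% value was -0.23 (adjusted p = 0.103) and the difference -0.29 (adjusted p = 0.0969), and on log2 fold they were 0.0354 and 0.0149. A tall intronic peak of the same gene 70574 bp from its start (chr4:74322125-74322896) went from 2.98 and 3.38 to 1.75 and 1.99 at 1% and to 2.22 and 2.48 at <0.1% O2. It fell by 0.77 (adjusted p = 9.42e-07) and by 0.44 (adjusted p = 0.00124), the smallest adjusted p at 1% among the peaks away from these genes' own promoters. On log2 fold these were -0.19 (adjusted p = 0.108) and -0.07 (adjusted p = 0.491). Kdm4d, whose promoter peak also lies at the start of Cwc15, was not called (-0.25 and -0.33, adjusted p = 0.179 and 0.0564), except at <0.1% without the first normoxic library (-0.46, adjusted p = 0.0242).

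Kdm5a showed the largest fall in pileup among the histone demethylases. It encodes an H3K4me3 demethylase that has been described as an oxygen sensor in other cells, and its promoter peak (chr6:120363205-120364690, centred upstream of the start) stood at 2.52 and 2.61 at 21% O2. At 1% O2 it stood at 1.31 and 1.17 and at <0.1% at 1.00 and 1.05, so every hypoxic library was at or near the height of a median peak. The change was -1.05 (SE 0.12, adjusted p = 2.9e-08) at 1% and -1.33 (SE 0.12, adjusted p = 1.3e-10) at <0.1% O2, with a difference between the levels of -0.28 (adjusted p = 0.0995; scaled by coverage -0.61, adjusted p = 0.0325). The percentile of its MACS2 fold among shared peaks fell from 81.4 and 84.8 to 57.1 and 48.1, and to 40.6 and 59.7. On log2 fold the change at 1% was -0.42 (adjusted p = 0.0519). Kdm5c (chrX:152232592-152233269) was not called on pileup (0.26 and 0.18, adjusted p = 0.177 and 0.33). The third member, Kdm5b, carried a weak promoter peak in the second normoxic library (26 fragments) and both 1% libraries (40 and 34) and in no other. A peak 3272 bp upstream of its start (chr1:134556455-134557343) rose from 1.10 and 0.887 to 1.56 and 1.43 at 1% and to 1.42 and 1.35 at <0.1% O2 (0.59 and 0.49, adjusted p = 0.000735 and 0.00317; without the second normoxic library the latter was 0.34, adjusted p = 0.0674, and scaled by coverage 0.33, adjusted p = 0.268). On log2 fold neither passed (0.27 and 0.32, adjusted p = 0.181 and 0.0965).

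Neither gene of the KDM6 subfamily, the H3K27 demethylases, was called at its promoter on pileup. Kdm6a (chrX:18161974-18163113) stood between 1.13 and 1.31 in all 6 libraries. Its fold percentile went from 70.3 and 51.2 at 21% O2 to 64.7 and 67.8 at 1% and to 88.8 and 83.9 at <0.1%, called higher at <0.1%. There it also passed on log2 fold (0.36, adjusted p = 0.0444) and with the GC trend subtracted (0.36, adjusted p = 0.026). Kdm6b, which is induced by stress and inflammation in other cells, had an intronic peak (chr11:69410540-69411940) centred 2435 bp from its nearest start. It was taken as the promoter peak because its edge lay within 2000 bp. Its heights were 1.62 and 1.24 at 21% O2, 1.18 and 1.22 at 1%, and 1.33 and 1.32 at <0.1%. Both 1% libraries lay just below the lower normoxic one and both <0.1% libraries between the normoxic ones, and the changes were -0.24 (95% interval -0.52 to 0.04, adjusted p = 0.171) and -0.10 (95% interval -0.37 to 0.18, adjusted p = 0.586). The local background around the Kdm6b peak was 17.9 to 34.3 fragments, where the median of the members ran from 9.87 to 15.1, and its fold percentile lay between 1.04 and 10.4.

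Of the small JmjC proteins, all 4 with a promoter peak in all libraries were lower on pileup at <0.1% O2 and 2 were lower at 1%, beside 38.5% and 22.0% of all promoter peaks. On log2 fold only Jmjd4 and Riox2 were lower at <0.1%, and with the GC trend subtracted only Riox2 and Kdm8. Riox2, a ribosomal oxygenase that hydroxylates histidine in a ribosomal protein, had a narrow peak (chr16:59471667-59472245) of 1.51 and 1.48 in normoxia, 1.06 and 1.17 at 1%, and 0.687 and 0.878 at <0.1% O2. The groups did not overlap, the changes were -0.42 (SE 0.15, adjusted p = 0.0226) and -0.94 (SE 0.15, adjusted p = 2.43e-06), and the levels differed by -0.52 (adjusted p = 0.00925). The call at 1% was lost when any 1 of the 1% or normoxic libraries was left out (-0.33 to -0.49, adjusted p from 0.0525 to 0.196) or when it was scaled by coverage (-0.26, adjusted p = 0.467), quantile normalized (-0.36, adjusted p = 0.0635) or with the GC trend subtracted (-0.36, adjusted p = 0.0526). The difference between the levels was lost without the second 1% (-0.46, adjusted p = 0.0932) or the first <0.1% library (-0.36, adjusted p = 0.176), with the GC trend subtracted (-0.22, adjusted p = 0.369) and on log2 fold (-0.07, adjusted p = 0.638). Jmjd4, which hydroxylates the translation termination factor eRF1, shares its promoter peak (chr11:59449792-59450713) with the start of Snap47. It stood at 0.885 and 0.762, 0.750 and 0.776, and 0.505 and 0.537, a change of -0.11 (adjusted p = 0.671) at 1% and -0.66 (SE 0.18, adjusted p = 0.0024) at <0.1% O2. With the GC trend subtracted the latter was -0.42 (adjusted p = 0.0536).

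Jmjd6, a lysyl hydroxylase of splicing factors, shares a tall peak (chr11:116842705-116844147) with Mettl23. It stood at 3.79 and 4.26 at 21% O2, 3.39 and 3.06 at 1%, and 2.92 and 3.13 at <0.1%, lower in every hypoxic library. The changes were -0.32 (SE 0.10, adjusted p = 0.0113) and -0.41 (SE 0.10, adjusted p = 0.000929). The first was lost without the second normoxic library (-0.22, adjusted p = 0.113) or the second 1% library (-0.23, adjusted p = 0.202), and with the GC trend subtracted the second was -0.13 (adjusted p = 0.289). Scaled by coverage the first was -0.15 (adjusted p = 0.681), and on log2 fold the second was -0.00445 (adjusted p = 0.979). Kdm8 (chr7:125444368-125445477) went from 2.79 and 3.19 to 2.44 and 2.57 at 1% and to 2.24 and 2.54 at <0.1% O2, with a call at <0.1% (-0.32, SE 0.11, adjusted p = 0.0123) and none at 1% (-0.25, adjusted p = 0.06). That call was lost without the second normoxic (-0.22, adjusted p = 0.123) or the first <0.1% library (-0.23, adjusted p = 0.17), while the 1% value passed without the first normoxic library (-0.37, adjusted p = 0.0141), with the GC trend subtracted (-0.28, adjusted p = 0.0307), with the replicate block (-0.25, adjusted p = 0.0457) and with both of these (adjusted p = 0.0249). The <0.1% value was -0.49 (adjusted p = 0.0705) scaled by coverage and 0.10 on log2 fold. Jmjd8 had no promoter peak in any library, and Riox1 lost its own.

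Among the TET genes, Tet3 carried 3 promoter peaks that did not move together. The peak at the upstream start (chr6:83456006-83457353) stood at 1.21 and 1.10 at 21% O2, 1.06 and 0.929 at 1%, and 0.687 and 0.720 at <0.1%, a fall of 0.72 (SE 0.15, adjusted p = 0.000226) at <0.1%. The peak at the internal start (chr6:83441202-83441989) stood at 1.46 and 1.50, 1.56 and 1.53, and 1.01 and 0.768, a fall of 0.75 (SE 0.14, adjusted p = 3.34e-05). Between them, the peak chosen as the gene's own by height (chr6:83443317-83443975, centred 1971 bp from that internal start) stood at 1.49 and 1.99 in normoxia, 2.37 and 2.41 at 1%, and 2.44 and 2.48 at <0.1% O2. It rose by 0.47 (SE 0.12, adjusted p = 0.00162) and 0.51 (SE 0.12, adjusted p = 0.000444); without the first normoxic library these were 0.25 (adjusted p = 0.108) and 0.27 (adjusted p = 0.0643). Scaled by coverage the latter was 0.35 (adjusted p = 0.218), and on log2 fold they were 0.17 (adjusted p = 0.415) and 0.35 (adjusted p = 0.0841). The upstream peak's value was -0.20 (adjusted p = 0.307) with the GC trend subtracted and -0.16 (adjusted p = 0.407) on log2 fold. Tet2 was not called (0.13 and -0.13, adjusted p = 0.49 and 0.481). Tet1 had no peak within 2000 bp of a GENCODE start. The intronic peak over its RefSeq start (chr10:62885699-62887495) stood at 0.803 and 0.650 at 21% O2, 0.759 and 0.694 at 1%, and 0.626 and 0.671 at <0.1%, with no call. A second intronic Tet1 peak (chr10:62865105-62866026) stood at 1.61 and 1.80, 2.13 and 2.06, and 1.84 and 1.82, highest in both 1% libraries (0.30, SE 0.11, adjusted p = 0.0357). That call was lost without the first normoxic library (0.20, adjusted p = 0.238) or either 1% library (0.29 and 0.34, adjusted p = 0.148 and 0.0916), scaled by coverage (0.47, adjusted p = 0.119), with the GC trend subtracted (0.26, adjusted p = 0.0711), without a mean-variance trend (adjusted p = 0.0967) and on log2 fold (-0.0425).

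Alkbh1 showed the largest loss of all 29 genes. It encodes a demethylase of DNA and transfer RNA, and its short peak (chr12:87443420-87443961) is shared with the start of Slirp, which codes for a mitochondrial RNA-binding protein. The peak stood at 1.08 and 1.23 at 21% O2, 0.417 and 0.469 at 1%, and 0.333 and 0.341 at <0.1%. The groups were far apart, with changes of -1.38 (SE 0.19, adjusted p = 7.48e-07) and -1.77 (SE 0.19, adjusted p = 3.32e-09) and a difference between levels of -0.39 (adjusted p = 0.144; scaled by coverage -0.72, adjusted p = 0.0212). On log2 fold the change at 1% was -0.39 (adjusted p = 0.0796), while that at <0.1% kept its call. The lowest count behind these values was 28 fragments, for which counting alone gives a 95% Poisson interval of 18.6 to 40.5, beside 66 and 98 fragments in the shallower normoxic libraries. Accessibility at this peak cannot be assigned to 1 of its genes. The other RNA demethylases of the family, Fto (chr8:91312998-91313975) and Alkbh5 (chr11:60536677-60538397), erase N6-methyladenosine and were not called, except Alkbh5 at <0.1% O2 with the GC trend subtracted (0.31, adjusted p = 0.0143). Fto stood between 4.33 and 5.56, and Alkbh5 between 2.18 and 2.53, over the 6 libraries.

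Of the 3 lysyl hydroxylases, which prepare collagen for cross-linking, 1 was called lower at 1% and 2 at <0.1% O2, and none higher. Of all promoter peaks, 22.0% and 38.5% were lower and 12.9% and 13.8% higher. Plod1 (chr4:147936362-147936887) stood at 1.18 and 1.06 at 21% O2, 0.935 and 0.714 at 1%, and 0.747 and 0.695 at <0.1%, below normoxia in all 4 hypoxic libraries. The changes were -0.45 (SE 0.16, adjusted p = 0.0276) and -0.64 (SE 0.16, adjusted p = 0.00163), the first lost without the first normoxic (-0.40, adjusted p = 0.118) or the second 1% library (-0.25, adjusted p = 0.395), and the second -0.28 (adjusted p = 0.167) with the GC trend subtracted. Scaled by coverage the first was -0.29 (adjusted p = 0.413), with the GC trend subtracted it was -0.39 (adjusted p = 0.0566), and on log2 fold they were -0.17 (adjusted p = 0.553) and -0.23 (adjusted p = 0.377). Plod2 (chr9:92541790-92542968), the telopeptide lysyl hydroxylase, stood at 1.36 and 1.49, 1.78 and 1.53, and 1.13 and 1.24, higher than normoxia at 1% and lower at <0.1% O2. Neither step passed on its own (0.21 and -0.26, SE 0.13, adjusted p = 0.2 and 0.0926), while the difference between the levels did (-0.48, adjusted p = 0.00669; lost without the first 1% or the first <0.1% library, adjusted p = 0.137 and 0.082, with the GC trend subtracted, -0.25, adjusted p = 0.214, and on log2 fold, -0.39, adjusted p = 0.154). Without the first normoxic library the <0.1% step passed (-0.37, adjusted p = 0.0449). A peak 4233 bp upstream of the same gene, at the start of the noncoding gene Gm37545 (chr9:92537652-92538329), went from 0.574 and 0.637 to 0.593 and 0.582 at 1% and to 0.889 and 1.12 at <0.1% O2 (0.72, SE 0.18, adjusted p = 0.001), although without the second <0.1% library this was 0.55 (adjusted p = 0.0551), scaled by coverage 0.56 (adjusted p = 0.0538) and with the GC trend subtracted 0.41 (adjusted p = 0.0595). An intronic Plod2 peak 49431 bp from the start (chr9:92591468-92591922) was lowest in the 1% libraries, at 1.18 and 1.44 in normoxia, 0.815 and 1.03 at 1%, and 1.31 and 1.13 at <0.1% O2. It fell by 0.51 at 1% (adjusted p = 0.00695), lost without the second normoxic library (-0.35, adjusted p = 0.117) or the first 1% library (-0.32, adjusted p = 0.186), or scaled by coverage (-0.34, adjusted p = 0.303).

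Plod3, whose peak (chr5:136986644-136987845) also covers the start of Znhit1, stood at 1.61 and 1.91, 1.45 and 1.46, and 1.38 and 1.40. Its call at <0.1% O2 (-0.33, SE 0.12, adjusted p = 0.0269) was lost without the second normoxic library (-0.21, adjusted p = 0.261) or either <0.1% library (-0.32 and -0.34, adjusted p = 0.105 and 0.0885). It was also lost scaled by coverage (-0.50, adjusted p = 0.0698), on log2 fold (-0.05, adjusted p = 0.822), quantile normalized (-0.25, adjusted p = 0.0933) and with the GC trend subtracted (-0.11, adjusted p = 0.478). Without the first normoxic library the 1% value passed (-0.41, adjusted p = 0.0225).

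The collagen prolyl 4-hydroxylase alpha subunits, which hold the catalytic site of the enzyme that stabilises the collagen triple helix, differed from each other. P4ha1 (chr10:59322822-59324072) stood at 3.75 and 3.88 at 21% O2, 3.61 and 3.70 at 1%, and 2.69 and 2.77 at <0.1%. It was level at 1% (-0.06, SE 0.10, 95% interval -0.26 to 0.13) and lower at <0.1% (-0.48, SE 0.10, adjusted p = 8.65e-05), with a difference between the levels of -0.42 (adjusted p = 0.00139; with the GC trend subtracted -0.22, adjusted p = 0.128, and on log2 fold -0.25, adjusted p = 0.149). P4ha2 (chr11:54100334-54101569) stood at 0.738 and 0.762, 1.24 and 1.09, and 1.08 and 1.10, higher in all 4 hypoxic libraries. It rose by 0.63 (SE 0.15, adjusted p = 0.00094) at 1% and 0.54 (SE 0.15, adjusted p = 0.00312) at <0.1% O2; scaled by coverage the latter was 0.37 (adjusted p = 0.206), and on log2 fold they were 0.04 (adjusted p = 0.849) and -0.10 (adjusted p = 0.512). Both windows printed above hold the core more than 1 time.

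P4ha3 had no consensus promoter peak, only weak ones in the first 1% library (47 fragments over a local background of 16.7) and the second <0.1% library (40 over 14.3). Inside the gene, 3 intronic peaks stood in all libraries, and each was higher at <0.1% than in all 4 other libraries. The one 24098 bp from the start (chr7:100309132-100310104) stood at 1.57 and 1.19 at 21% O2, 1.56 and 1.38 at 1%, and 2.65 and 2.46 at <0.1%, a rise of 0.90 (SE 0.13, adjusted p = 3.97e-07) that was 0.24 (adjusted p = 0.169) on log2 fold. The middle one (chr7:100302042-100302893) stood at 1.93 and 2.00, 1.97 and 2.28, and 2.93 and 2.55, a rise of 0.47 (SE 0.11, adjusted p = 0.0006) that was 0.31 (adjusted p = 0.284) scaled by coverage and 0.16 (adjusted p = 0.155) on log2 fold. The one 2878 bp from the start (chr7:100287983-100288813) stood at 1.08 and 1.01, 1.00 and 1.05, and 1.32 and 1.41, and rose by 0.39 (SE 0.14, adjusted p = 0.0207), lost without the second normoxic library (0.34, adjusted p = 0.0886) or either <0.1% library (0.43 and 0.34, adjusted p = 0.0519 and 0.138), and it was 0.22 (adjusted p = 0.479) scaled by coverage, 0.24 (adjusted p = 0.161) with the GC trend subtracted and 0.0279 (adjusted p = 0.911) on log2 fold. At 1% O2 the changes of these 3 peaks were -0.03, 0.11 and 0.10, and none was called.

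Of the 100 member peaks, 39 lay at a member's own promoter, 18 at the promoter of a neighbouring gene and 43 outside promoters. The 32 outside promoters that stood in all libraries leaned the other way, as did such peaks in the genome at large. At <0.1% O2, 11 were higher and 3 lower (34.4% and 9.38%, beside 31.9% and 11.8% of all 15473 shared peaks outside promoters). At 1% O2, 8 were higher and 7 lower (25.0% and 21.9%, beside 19.2% and 18.8%). By adjusted p, the first 5 away from the members' own promoters at 1% O2 were the Kdm4c intronic peak, a Jmjd1c intronic peak, the peak upstream of Kdm5b, a peak at the Mfn2 promoter downstream of Plod1 and a Fto intronic peak. At <0.1% they were the distal P4ha3 peak, a peak downstream of Jmjd4, the Mfn2 promoter, a Kdm7a exonic peak and a Jmjd1c peak at the Reep3 promoter. The last of these also lies at the 5′ end of the annotated Jmjd1c gene (chr10:67096125). It was counted here because the nearest Jmjd1c transcript start used was 30476 bp away.

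The peak downstream of Jmjd4 (chr11:59458420-59459552) had values of opposite sign at the hypoxia levels. It stood at 3.67 and 3.70 at 21% O2, 2.99 and 3.21 at 1%, and 5.34 and 5.94 at <0.1%, a rise of 0.61 (SE 0.10, adjusted p = 2.29e-06) at <0.1% beside -0.25 (adjusted p = 0.0375) at 1%. The difference between the levels was 0.86 (SE 0.10, adjusted p = 5.05e-08), while the value at 1% lost its call when any 1 library was left out except the first normoxic one (-0.18 to -0.29, adjusted p from 0.0623 to 0.311). Scaled by coverage none of the 3 passed (0.45 at <0.1%, -0.08 at 1% and 0.53 between the levels, adjusted p = 0.0995, 0.838 and 0.0591), and on log2 fold they were -0.00473, -0.06 and 0.05. The Kdm7a exonic peak, 62296 bp from the start (chr6:39144142-39144845), stood at 0.393 and 0.362, 0.667 and 0.592, and 0.707 and 1.07. It rose by 0.73 (adjusted p = 0.00399; without the first 1% library 0.66, adjusted p = 0.0515, and on log2 fold 0.46, adjusted p = 0.0658) and 1.21 (SE 0.20, adjusted p = 6.86e-06), the largest rise in pileup of any shared member peak at <0.1% O2.

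The Mfn2 promoter peak, 4957 bp beyond the end of Plod1 (chr4:147904435-147905158), stood at 1.25 and 1.29, 0.898 and 0.643, and 0.626 and 0.585. It fell by 0.74 (adjusted p = 0.000742; without the second 1% library -0.48, adjusted p = 0.0736, and scaled by coverage -0.57, adjusted p = 0.0645) and by 1.06 (adjusted p = 3.2e-06). Mfn2 codes for a mitochondrial fusion protein and is no member. In Jmjd1c, the intronic peak 16903 bp from a start (chr10:67143640-67144682) went from 1.33 and 1.19 to 0.694 and 0.816 at 1% and to 0.990 and 1.01 at <0.1% O2, a call at 1% only (-0.74, adjusted p = 0.000202; scaled by coverage -0.57, adjusted p = 0.0593, and on log2 fold -0.32, adjusted p = 0.112). With the GC trend subtracted the <0.1% value passed as well (-0.71, adjusted p = 0.000154). The peak at the Reep3 promoter (chr10:67096147-67097418) went from 1.69 and 1.32 to 1.20 and 1.24 and to 0.859 and 0.866, a call at <0.1% (-0.79, adjusted p = 1.91e-05; -0.29, adjusted p = 0.0924, with the GC trend subtracted and -0.38, adjusted p = 0.145, on log2 fold); the 1% value passed without the second normoxic library (-0.45, adjusted p = 0.0294). The Fto intronic peak (chr8:91545550-91545920) rose at 1% O2 from 0.557 and 0.562 to 0.898 and 0.939 (0.71, adjusted p = 0.00129) and stood at 0.747 and 0.671 at <0.1% (0.34, adjusted p = 0.105).

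**Figure D4:**
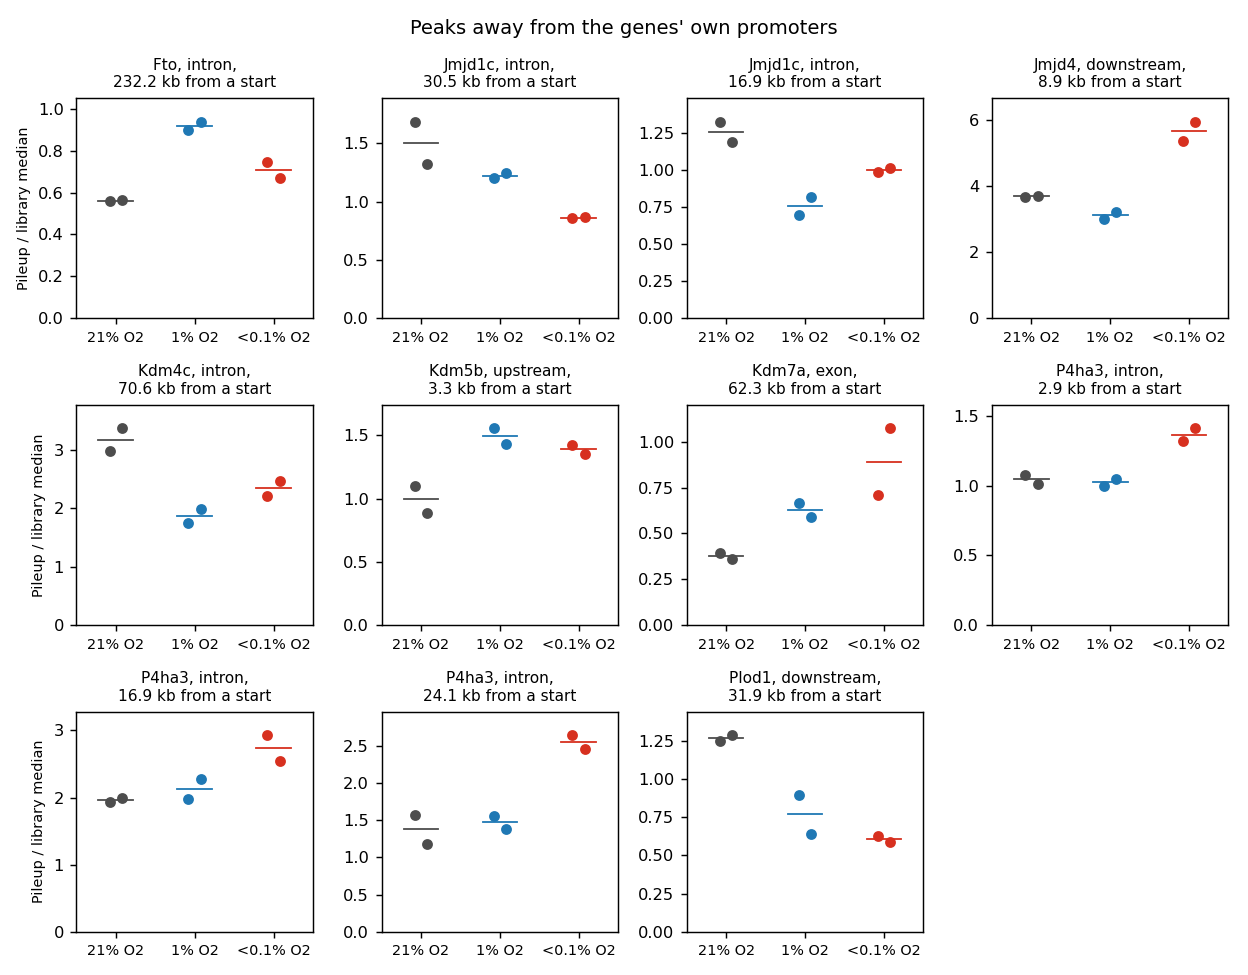
Height in each library (points) with group means (lines) at the named peaks away from the genes' own promoters; each panel has its own y axis from 0, in summit pileup over the library median, and gives the distance to the nearest annotated start. At <0.1% O2 the 3 P4ha3 peaks and the peak downstream of Jmjd4 (5.34 and 5.94) stand above all other libraries, and the Kdm4c intronic peak is lowest at 1% O2.

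As a second measure, the MACS2 fold was ranked among the shared peaks of each library, and a promoter was called where neither hypoxic library overlapped the normoxic pair and the mean shift was at least 10 percentile points. An exact permutation test of 2 values against 2 gives no p under 0.33, so this is a description. At 1% O2, 6 promoters ranked lower and 3 higher, beside 16.5% and 11.9% of all promoter peaks (20.7% and 10.3% of the members). At <0.1% O2, 11 ranked lower and 4 higher (37.9% and 13.8%, beside 26.5% and 12.0%), and the 4 became 2 without the first normoxic library. Both measures called Phf8, Jmjd1c, Kdm5a and Alkbh1 lower and Kdm3b and Tet3 higher at 1% O2. At <0.1% they shared Kdm2b, Phf8, Jmjd1c, Kdm5a, Jmjd4, Riox2, Alkbh1 and P4ha1 as lower and Kdm2a and Tet3 as higher, and no gene was called in opposite directions. Kdm5c, not called on pileup, went from fold percentiles of 75.4 and 86.8 to 97.6 and 95.1 at 1% and to 94.0 and 95.9 at <0.1% O2. P4ha2 did the reverse, with a call on pileup and fold percentiles of 64.6 and 64.4, 68.1 and 68.0, and 55.0 and 59.7.

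Presence was scored as gained where both libraries of a hypoxia level shared a stretch of over 200 bp and no normoxic library had a peak there, and as lost for the converse. At 1% O2, 8 of the 100 member peaks were gained and 0 lost, beside 10.4% and 0.997% of all consensus peaks. At <0.1% O2, 5 were gained and 2 lost, beside 9.95% and 1.47%. The normoxic lists were the shortest. With all lists cut to the 33006 strongest peaks, 5 were gained and 2 lost at 1% and 3 gained and 3 lost at <0.1% O2. Leaving out 1 library at a time moved the gains from 8 to as many as 13 at 1% (without the second 1% library) and from 5 to as many as 16 at <0.1% (without the second <0.1% library, and 8 without the second normoxic or the first <0.1% library). Losses at 1% O2 went from 0 to 1 without either normoxic library. At <0.1% they went from 2 to 6 without the first normoxic library and to 5 without the second normoxic or the first <0.1% library.

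The peaks gained at both levels lay in introns of Phf2, Kdm3a, Kdm4b and Fto and downstream of Alkbh5, at the start of Gm12622. Their summits held 24 to 62 fragments in the hypoxic libraries. A peak in an exon of Kdm4a (chr4:118137909-118138169) was taller, with 151 and 146 fragments at 1% and 145 in the first <0.1% library, beside taller peaks that stood in all 6 libraries. An intronic Tet3 peak and a second Fto peak were, like it, scored as gained at 1% only. Both losses were peaks at promoters. Riox1, a ribosomal oxygenase like Riox2, had a promoter peak (chr12:83950345-83950895) of 23 and 18 fragments in normoxia and 36 and 25 at 1% O2, and none at <0.1%. Phf2, an H3K9 demethylase, had a weak promoter peak (chr13:48869921-48870300) of 14 and 15 fragments in normoxia and 16 and 16 at 1%, and none there at <0.1% O2. A second weak peak near a Phf2 start (chr13:48871107-48871426) held 15 fragments in the first normoxic library and 24 and 17 at 1%, and the first <0.1% library had a peak of 21 fragments further along. At 14 to 16 fragments these peaks are near the lowest summit of 11 to 14 fragments in a library's shared peaks, so a fall below the caller's threshold and a full loss cannot be told apart.

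**Figure D5:**
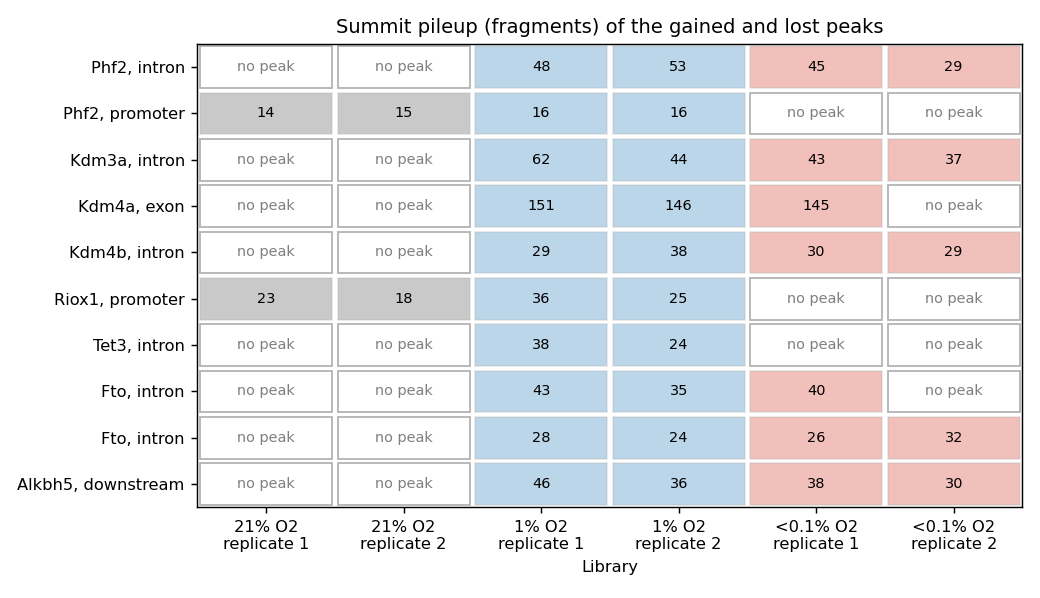
Summit pileup in fragments of each member peak that was gained or lost, in each of the 6 libraries (columns); shaded cells hold a called peak and white cells none. All 8 gained peaks lie over 2000 bp from the members' GENCODE starts, and the peaks shown for the Phf2 and Riox1 promoters are called at 21% and 1% but not at <0.1% O2.

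Genes of the same reactions were counted from a list of 30: the flavin-dependent demethylases, histone methyltransferases, DNA and RNA methylation genes, and further collagen-modifying genes, none of which was in the gene list above. Of these, 28 had a promoter peak in all libraries. At 1% O2, 8 were lower and 4 higher, and at <0.1%, 15 were lower and 3 higher, with median changes of -0.03 and -0.49. These counts are to be read beside the shares of all promoter peaks given above (22.0% and 12.9%, 38.5% and 13.8%).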

How the data were processed

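ATACseq peak lists of 6 GL261 libraries were analysed, 2 each at 21%, 1% and <0.1% O2. Per the labels and the study's methods, the authors trimmed reads (Trimmomatic), aligned them to mm10 with Bowtie2 2.2.5, removed duplicates and blacklisted regions and called peaks in each library separately with MACS2 2.1.1.2. The deposited columns hold the fold (a ratio of summit pileup to local background), -log10 p-value, -log10 q-value and summit position; read counts per region were not used here. Whole-number summit pileup was recovered from fold and -log10 p in 100% of peaks (within 0.01 on the -log10 scale). The recovered genome coverage of 2.16 to 3.35 fragments gives the depth. The Poisson interval given for Alkbh1 covers counting error only, while the intervals of log2 changes come from the limma fit.

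Consensus peaks were stretches of over 200 bp shared by both replicates of a level, merged over levels. Log2 pileup, centred on each library's median over the 28432 peaks in all libraries, was fitted with limma 3.58.1 (R 4.3.3, trend on). Python 3.11.15 was used for the rest. The fit was also run on simulated data, and the outcome is not given here. The gene promoter peak, the fold rank rule and the presence rule are given with the results. The genes, lists and tests were chosen with earlier results of these data known. Values in every library are given for genes called at either level, for Kdm3a, Kdm4b, Kdm4c, Kdm6b, Jmjd6, Plod1, Plod2, P4ha1 and P4ha2, and for genes with no promoter peak in all libraries, with the 5 other peaks of smallest adjusted p at each level. The further promoter peaks of a gene and the Plod2 peaks away from its promoter were named after their values were seen. Alternatives were other scalings, the fold in place of pileup, a GC trend, a replicate block, overlap, q and window limits, rank thresholds and leaving out each library.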

Additional observations from a re-analysis of the deposited data

Results flagged for a closer look

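The effect of hypoxia differed between 1% and <0.1% O2 at the peaks below, by the limma contrast of the levels (adjusted over all shared peaks). Differences are log2 pileup at <0.1% less that at 1% O2. At gene promoters every such difference was negative: -0.64 at Kdm2b, -0.39 at Kdm7a, -0.72 at Kdm3b, -0.47 at Kdm4c, -0.55 at Jmjd4, -0.52 at Riox2, -0.48 at Plod2 and -0.42 at P4ha1. Adjusted p ran from 0.000136 at Kdm3b to 0.021 at Jmjd4. These 8 are 27.6% of the 29 gene promoter peaks. Of all promoter peaks, 18.5% were lower and 4.97% higher at <0.1% than at 1% O2, the same lean.

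Leaving out 1 library ended the call at Jmjd4 (any hypoxic library, -0.52 to -0.60, adjusted p from 0.0616 to 0.117) and at Kdm7a (the first 1% or either <0.1% library, -0.30 to -0.44, adjusted p from 0.0591 to 0.24). It did so at Riox2 without the second 1% or the first <0.1% library (-0.46 and -0.36, adjusted p = 0.0932 and 0.176) and at Plod2 without the first 1% or the first <0.1% library (-0.38 and -0.42, adjusted p = 0.137 and 0.082). Kdm2b, Kdm3b, Kdm4c and P4ha1 kept their calls whichever library was left out. On log2 fold none of the 8 was called (-0.47 to 0.0149). Without a mean-variance trend in the fit, Kdm7a lost its call (adjusted p = 0.0747). With the GC trend subtracted only Kdm3b was called. Kdm2b was then -0.15 (adjusted p = 0.565), Kdm4c -0.29 (adjusted p = 0.0969) and P4ha1 -0.22 (adjusted p = 0.128), and with the replicate block added Kdm3b was -0.39 (adjusted p = 0.0546).

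At the other promoter peaks of Tet3 the difference was -0.81 at the internal start and -0.49 at the upstream start (adjusted p = 5.7e-05 and 0.0175). In Jmjd1c it was -0.51 at the Reep3 promoter and 0.41 at the intronic peak 16903 bp from a start (adjusted p = 0.00855 and 0.0439). It was 0.33 at the Kdm4c intronic peak (adjusted p = 0.0254) and 0.86 downstream of Jmjd4 (adjusted p = 5.05e-08). At Plod2 it was 0.77 at the peak upstream of the gene and 0.41 at the intronic peak (adjusted p = 0.0017 and 0.0395), opposite in sign to the promoter. The intronic peaks of P4ha3 gave 0.42, 0.37 and 0.80 in order from the start (adjusted p = 0.026, 0.0144 and 1.92e-05).

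Of these other peaks, the internal Tet3 start, the peak downstream of Jmjd4 and the distal P4ha3 peak passed whichever library was left out. The Jmjd1c intronic peak lost its call without any 1 hypoxic library (0.28 to 0.51), as did the P4ha3 peak nearest the start (0.36 to 0.45). The middle P4ha3 peak lost it without the first 1% or the first <0.1% library (0.25 and 0.25), the Reep3 promoter without the second 1% or the first <0.1% library (-0.49 and -0.51), and the upstream Plod2 peak without the second <0.1% library (0.59, adjusted p = 0.0802). The upstream Tet3 start (-0.42 to -0.53), the Kdm4c intronic peak (0.22 to 0.39) and the intronic Plod2 peak (0.23 to 0.51) lost it without the first 1% library or either <0.1% library. On log2 fold only the upstream Plod2 peak kept its call. Scaled by coverage only both Tet3 peaks and the Reep3 promoter did, and with the GC trend subtracted only the internal Tet3 start, the peak downstream of Jmjd4 and the distal P4ha3 peak. Without a mean-variance trend in the fit, the intronic peaks of Kdm4c, Plod2 and Jmjd1c lost their calls (adjusted p = 0.133, 0.121 and 0.0725). So did the P4ha3 peak nearest the start and the middle one (adjusted p = 0.0526 and 0.0992). Causes of these differences were not tested.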

How the results depend on the processing

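Every value under each alternative was computed from the same peak lists. Over the 6 counts of promoters lower or higher on pileup (1% against 21%, <0.1% against 21% and <0.1% against 1% O2), a wider overlap, a q limit, a 500 bp promoter window and quantile scaling left each within 1.5 times. Scaled by genome coverage, 2 were lower at 1% and 0 higher at <0.1% O2. On log2 fold, 0 were lower and 0 higher at 1%, 5 lower and 1 higher at <0.1%, and 0 lower between the levels. With the GC trend subtracted, 8 were lower and 7 higher at <0.1%, and 1 lower and 1 higher between the levels. Without a mean-variance trend, 4 were lower at 1% O2. With the replicate block the counts were 9 and 5 at 1%, 14 and 4 at <0.1% and 8 and 0 between levels; replicate numbers did not pair the libraries (correlations of deviations -0.051, -0.013 and 0.00786). With replicate block and GC together they were 8 and 7 at <0.1%, and 0 and 1 between levels. Leaving out 1 library gave 4 to 8 lower and 3 to 5 higher at 1%, 11 to 16 and 2 to 4 at <0.1%, and 4 to 8 and 0 to 0 between levels.

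Fold rank gave 7 higher at 1% with -log10 q ranked, 5 higher with pileup ranked, 2 lower and 5 higher at 1% and 4 lower at <0.1% within the whole list, 5 higher at 1% with 5 points, and with 20 points 2 and 0 at 1% and 4 and 2 at <0.1%. With GC subtracted 5 were lower at <0.1%. Leaving out 1 library gave 6 to 7 lower and 2 to 3 higher at 1%, and 9 to 12 and 2 to 4 at <0.1%. For presence, 1 peak was lost at 1% with -log10 q of at least 5; with equal lists 2 were lost and 5 gained at 1% and 3 gained at <0.1%; leaving out 1 library gave 8 to 13 gained and 0 to 1 lost at 1%, and 5 to 16 and 2 to 6 at <0.1%.

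Directions that turned, with either value called, were as follows; the cause was not tested. On log2 fold at <0.1% against 21% O2, Kdm4b gave -0.0105, Kdm4c 0.0354, Kdm8 0.10, P4ha2 -0.10 and the peak downstream of Jmjd4 -0.00473; between levels Kdm4c gave 0.0149 and the Jmjd1c intronic peak -0.00728; at 1% the second Tet1 intronic peak gave -0.0425. With GC subtracted, with and without the replicate block, Kdm2b gave 0.16 and Kdm7a 0.43 at <0.1%, and between levels Kdm7a gave 0.0233, the Jmjd1c intronic peak -0.18 and the Kdm4c intronic peak -0.15. Scaled by coverage that Kdm4c peak gave -0.00212. Within 500 bp the Tet3 promoter peak is the one at the internal start, with -0.75 at <0.1%, -0.81 between levels and rank changes of -8.65 and -19.9 points. With pileup ranked, Kdm4a gave 0.0492 points at 1% and Kdm7a 0.16 at <0.1%. The 2 libraries per level and pileups of 28 to 614 fragments at the gene promoter peaks limit the precision.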

Other observations

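The counts for genes of the same reactions are given here by role, all at promoter peaks in the limma fit, and differences between roles were not tested. The shares to read them beside are those of promoters genome-wide: 22.0% lower and 12.9% higher at 1%, then 38.5% and 13.8% at <0.1%. The 3 genes of the m6A methyltransferase complex, Mettl3, Mettl14 and Wtap, were all lower at both hypoxia levels (median -0.57 at 1% and -0.79 at <0.1% O2). Of 12 histone methyltransferase genes, 2 were lower and 2 higher at 1%, and 8 were lower and 1 higher at <0.1% O2 (median -0.53). Of 4 DNA methylation genes, 1 was lower at 1% and 2 at <0.1% O2, and none was higher. Of the flavin-dependent demethylases, which do not use 2-oxoglutarate, Kdm1b was higher at both levels and Kdm1a was not called at either.

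Of the 9 further collagen-modifying genes, 7 had a promoter peak in all libraries. Crtap and P3h4, members of the prolyl 3-hydroxylation group, were lower at both levels. P4hb, the beta subunit that joins the P4ha proteins, was higher at both. P3h1, P3h2, P3h3 and Colgalt1 were not called. Serpinh1, the collagen chaperone, and Lox, a lysyl oxidase, had no promoter peak in any library.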
